A study of Mus musculus with 23 samples.

Results

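Hox genes were measured in *longissimus dorsi* (LD), the long extensor muscle of the back, and in tongue of male C57/BL6 mice. The Hox probe sets were chosen by name: every probe set whose platform annotation lists exactly 1 gene with a symbol made of Hox, a cluster letter from a to d and a number. This gave 37 of the 22626 probe sets, which name 31 of the 39 Hox genes and 31 of the 12393 genes that the array names by single-gene probe sets. BF mice had flown for 30 days aboard the Bion-M1 biosatellite, BG mice were held for the same time in such a habitat on the ground, and FC mice stayed in the animal facility. LD was measured in 5 BF, 5 BG and 5 FC mice and tongue in 3 BF, 3 BG and 2 FC mice, with 1 array per muscle sample. All animals were adult males of 1 strain, no transgene or drug is named, flown mice were sampled some hours after landing, and BG and FC mice are 2 kinds of ground control. Whether a mouse gave both muscles, and which stretch of LD was taken, is not given in the sources used here. A value is the log2 signal of a probe set after Robust Multichip Average (RMA) processing, on which a step of 1 is 2-fold. "Passed" means an adjusted p under 0.05 in limma over all 22626 probe sets, and "more than 2-fold" is stated where a change also had that size.

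Hox genes encode homeodomain transcription factors that give cells their position along the head-to-tail axis. They lie in clusters, numbered so that low paralog numbers are switched on toward the head and high numbers toward the tail. Adult connective tissue and muscle keep part of this address. LD derives from the somites of the trunk, whereas tongue muscle derives from the somites closest to the head, and tongue connective tissue largely from cranial neural crest.

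The 37 probe sets held 12 of Hoxa (9 genes, chromosome 6), 10 of Hoxb (9 genes, chromosome 11), 8 of Hoxc (6 genes, chromosome 15) and 7 of Hoxd (7 genes, chromosome 2). Hoxa3, Hoxa4, Hoxa9, Hoxb4 and Hoxc6 had more than 1 probe set. Hox genes without a probe set of their own were not analysed here. RMA values carry no detection call, so a low value is not evidence of expression, and 13 of the 37 probe sets lay in the dimmest eighth of all probe sets by their mean.

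The array medians lay between 6.42 and 6.54 in LD and between 6.53 and 6.61 in tongue. Both muscles carried skeletal fibre markers, whose mean over 8 genes was 13.85 to 14.07 in LD and 11.73 to 13.11 in tongue. Most of that gap came from Myh2 and Actn3, higher in LD by 5.52 and 5.23 (log2). The others were higher by 0.26 (Myh4) to 0.72 (Tnnt3), and the median of the list was 0.45. Tongue samples also held lining epithelium. The mean of 11 oral epithelium markers was 5.05 to 5.42 in LD and 12.08 to 12.44 in tongue, and Krt13, a keratin of oral epithelium, was lower in LD by 10.13 (log2). Adipocyte markers, a mean over 6 genes, were 6.25 to 9.02 in LD and 4.89 to 6.37 in tongue. Of these 6 genes, 4 passed as higher in LD, Cidea passed as lower and Ucp1 did not pass. In such bulk samples fewer cells of a type and less RNA per cell cannot be told apart, and the part of these tissue differences in the Hox values was not tested.

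The first comparison asked which Hox genes separate the trunk muscle from the tongue. In LD, Hox genes of paralog numbers 4 to 9 in clusters a, c and d were higher than in tongue by up to 4.08 on the log2 scale, and Hoxc13 was lower by 2.09. Of the 37 probe sets, 33 passed as higher in LD and 1 as lower. Over all 22626 probe sets 69.8% passed and 45.3% passed as higher in LD, so passing alone is common here. After cyclic loess normalization 31.1% of all passed as higher and 30.8% as lower, where 45.3% and 24.5% did with the deposited values, and of the Hox probe sets 26 passed as higher and 1 as lower. The 7 that were then lost were Hoxa9 (1455626_at), Hoxa13, Hoxb7, Hoxb13, Hoxd1, Hoxd12 and Hoxd13, and Hoxa11, which did not pass either way, turned from 0.11 to -0.01. The median difference was 0.51 for Hox and 0.14 over all probe sets. By the stricter rule of more than 2-fold, 11 Hox probe sets were higher in LD and 1 was lower, against 5.51% and 7.93% of all probe sets. These 12 probe sets belong to 11 genes. Every LD array exceeded every tongue array in 15 of the 37 and lay below every tongue array in 1, against 11.2% and 10.5% of all.

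Hoxc8, which patterns the thoracic skeleton and forelimb motor neurons in mice, had the largest difference of the 37. Its signal was 6.71 at the lowest, 8.78 at the median and 9.57 at the highest in LD, and 3.98, 4.46 and 5.05 in tongue. The groups did not overlap, and the difference was 4.08 (SE 0.251, 16.9-fold, adjusted p = 1.55e-12). Hoxd8, its paralog on chromosome 2, had 9.01, 9.95 and 10.45 in LD and 5.67, 6.36 and 6.89 in tongue. It was higher in LD by 3.58 (SE 0.166, adjusted p = 7.88e-15), with no overlap.

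At paralog 9, whose members mark thoracic and lumbar levels, 3 of 5 probe sets were more than 2-fold higher in LD. Hoxd9 ran from 7.78 through a median of 8.67 to 9.62 in LD and from 5.84 through 6.29 to 6.73 in tongue. It differed by 2.38 (SE 0.188, adjusted p = 1.35e-10). Hoxc9, which gives spinal motor neurons their thoracic identity, ran from 7.0 through 8.25 to 9.15 in LD and from 6.25 through 6.61 to 6.85 in tongue. The lowest LD value lay narrowly above the highest tongue value, and the difference was 1.56 (SE 0.26, adjusted p = 1.54e-05).

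Hoxa9 varied widely among the LD mice. Its probe set 1455626_at read 7.83, 5.71, 4.70, 3.91 and 4.47 in the 5 BF mice, 4.22, 5.22, 3.90, 4.0 and 7.59 in the 5 BG mice and 6.58, 8.0, 4.21, 4.24 and 4.60 in the 5 FC mice. In tongue it read 4.97, 4.0 and 4.26 in BF, 3.84, 3.76 and 3.84 in BG and 3.72 and 4.01 in FC. Each housing group of LD thus held 1 or 2 mice above 6.5, while of the others BF LD 2 (5.71) and BG LD 2 (5.22) lay above the tongue range and the rest within it. The difference between muscles was 1.25 (SE 0.528, adjusted p = 0.0396), and this call was lost in 18 of 31 alternative settings (adjusted p from 0.00746 to 0.0898), among them leaving out any 1 of these 4 mice (1.03 to 1.16). The other probe set, 1421579_at, differed by 0.43 (SE 0.118, adjusted p = 0.00289). Hoxa10, the next gene of the cluster, read 4.18 in BF LD 1, 4.42 in BG LD 5, 3.72 in FC LD 1 and 4.93 in FC LD 2, the same 4 mice, and between 3.18 and 3.56 in the other 11. It did not pass between muscles (0.38, adjusted p = 0.0784).

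Paralogs 4 to 6, which act at neck and upper thoracic levels, gave the remaining genes that were higher in LD. Hoxc4 was 7.29 at the lowest, 7.78 at the median and 8.45 at the highest in LD, and 4.81, 4.95 and 5.41 in tongue. It was higher by 2.85 (SE 0.122, adjusted p = 1.57e-15). Hoxa4 had 5.49, 6.12 and 6.96 in LD and 3.01, 3.49 and 4.15 in tongue with probe set 1427354_at, a difference of 2.72 (SE 0.177, adjusted p = 4.26e-12). Its tongue values lay in or near the range of the dimmest eighth of probe sets (means of 2.51 to 4.04), so the size is that of the measured signals and tongue may be at background. Its second probe set, 1420226_x_at, was dim and differed by 0.38 (SE 0.0606), so the probe sets of Hoxa4 do not give the same size. Hoxa5, needed for the cervicothoracic skeleton and the airways in mice, had 6.11, 7.24 and 8.48 in LD and 4.96, 5.20 and 5.33 in tongue. It differed by 2.11 (SE 0.215, adjusted p = 9.92e-09), and its LD values spread far more widely than its tongue values. Hoxc5 had 5.49, 6.11 and 6.79 in LD and 4.0, 4.20 and 4.42 in tongue, a difference of 1.90 (SE 0.132, adjusted p = 1.28e-11). For all these genes the muscles did not overlap.

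Hoxc6, which is active at forelimb and upper trunk levels, was measured by 3 probe sets. Probe set 1427362_x_at had 7.74, 8.27 and 8.54 in LD and 5.77, 6.12 and 6.52 in tongue, and differed by 2.15 (SE 0.0871, adjusted p = 6.1e-16). Probe set 1427361_at had 7.78, 8.19 and 8.45 in LD and 5.91, 6.19 and 6.30 in tongue, and differed by 2.07 (SE 0.0793, adjusted p = 2.03e-16). The third, 1427454_at, differed by 0.71 (SE 0.081). All 3 were higher in LD, and they did not give the same size.

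Hoxc13 went the other way. This gene drives keratin genes of hair and nail in mice and is known from the filiform papillae of the tongue. It read 5.43, 5.60, 5.41, 5.23 and 5.25 in BF, 6.05, 5.81, 5.81, 5.52 and 5.30 in BG and 5.66, 5.84, 5.29, 5.45 and 5.70 in FC LD. In tongue it read 7.44, 7.35 and 7.48 in BF, 7.63, 7.73 and 7.45 in BG and 7.88 and 7.92 in FC. Every LD value lay below every tongue value, with a difference of -2.09 (SE 0.0863, 4.25-fold, adjusted p = 8.79e-16). The 11 measured oral epithelium markers were all lower in LD as well (median difference -7.43), and their part in this result was not tested.

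**Figure D1:**
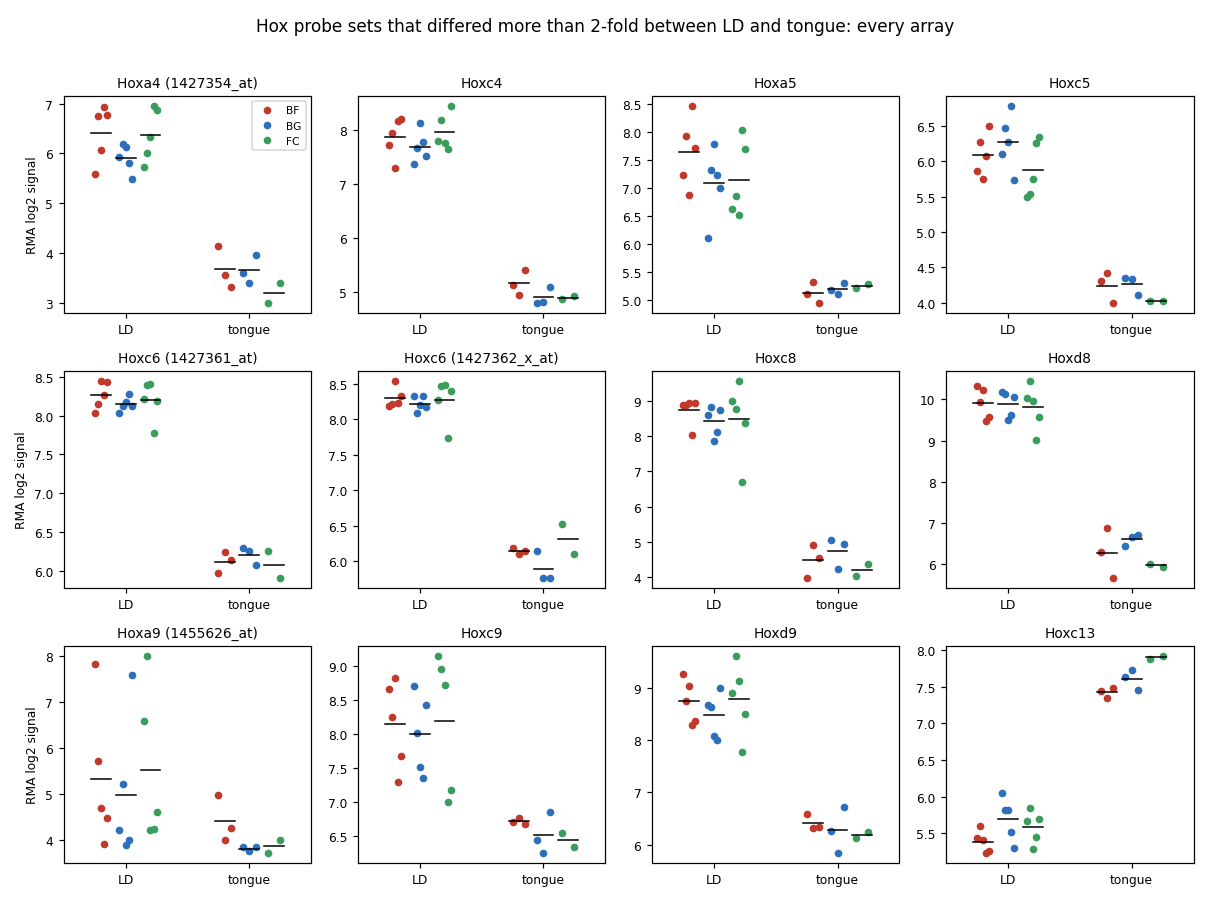
RMA log2 signal (vertical axes) of the 12 Hox probe sets that differed more than 2-fold, with LD left of tongue in each panel. Each point is 1 array, coloured by housing group, and black lines are group means. Of the 12, only Hoxa9 overlaps between the muscles, and only Hoxc13 is lower in LD.

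By cluster, Hoxc carried most of the large differences. In Hoxc 6 of 8 probe sets were more than 2-fold higher in LD and 1 was lower, with a median difference of 1.98. In Hoxa 3 of 12 and in Hoxd 2 of 7 were higher by that rule. The clusters differ in which paralogs the array holds. Within paralogs 4 to 9, 6 of 7 Hoxc, 3 of 6 Hoxa, 2 of 2 Hoxd and 0 of 6 Hoxb probe sets were higher by that rule. Hoxb had 0 of 10, although all 10 passed, with differences from 0.15 to 0.96. Hoxb2, a gene of the hindbrain, was the highest of them at 0.96 (SE 0.0823, adjusted p = 5.1e-10), followed by Hoxb6 at 0.67 (SE 0.0913). These are means of the housing groups. Taken alone, Hoxb2 passed as more than 2-fold higher in BG (1.19) and Hoxb6 in FC (1.10).

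By paralog number, all 11 probe sets more than 2-fold higher in LD lay in paralogs 4 to 9, which hold 21 of the 37. None of the 7 probe sets of paralogs 1 to 3 (0.15 to 0.96) and none of the 9 of paralogs 10 to 13 (-2.09 to 0.38) did so. These paralog ranges were drawn after the values were seen and were not tested. Of paralogs 10 to 13, Hoxa10, Hoxa11 (0.11, adjusted p = 0.25) and Hoxd10 (0.17, adjusted p = 0.12) did not pass. Hoxc13 passed as lower in LD (-2.09). The others of that range passed with small differences: Hoxd11 (0.31), Hoxa13 (0.26), Hoxd12 (0.23), Hoxd13 (0.22) and Hoxb13 (0.21). Small positive differences were common among dim probe sets in general: in the dimmest eighth of the arrays' probe sets the median difference was 0.13 and 80.7% were above 0. At the low paralogs, Hoxb1 (0.32), Hoxd1 (0.15), Hoxa2 (0.46), Hoxa3 (0.63 and 0.48) and Hoxb3 (0.51) stayed below 2-fold. So did Hoxb4 (0.35 and 0.59), Hoxb5 (0.51), Hoxa7 (0.53), Hoxb7 (0.15) and Hoxb9 (0.46) within paralogs 4 to 9.

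**Figure D2:**
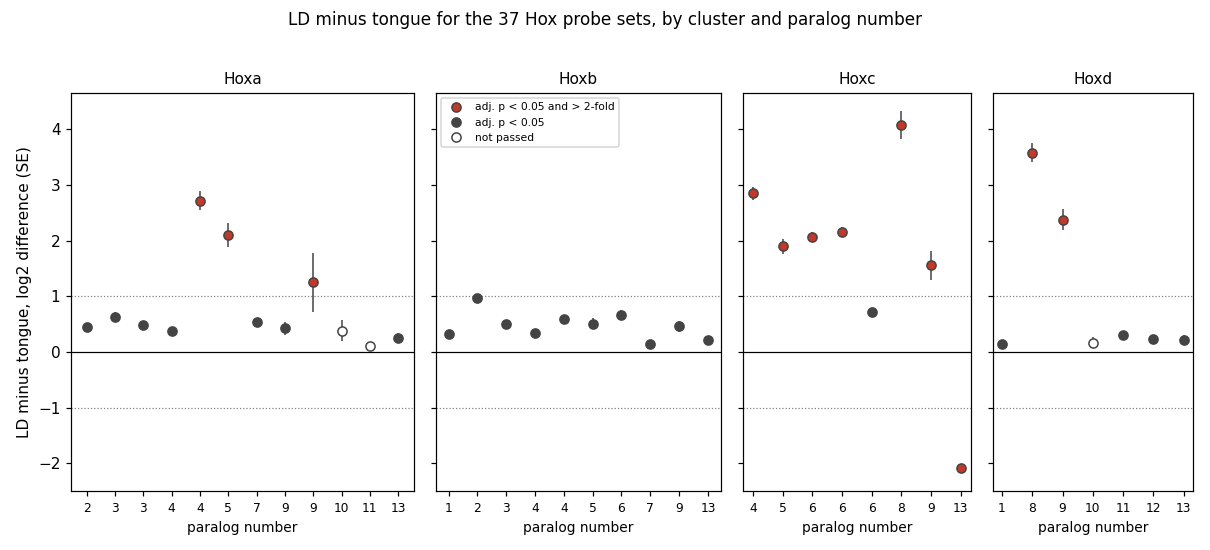
LD minus tongue (log2, mean of the 3 housing groups, vertical axis) for each of the 37 Hox probe sets, by cluster and by paralog number from low to high. Bars are SE, and dotted lines mark 2-fold. The large positive differences lie in paralogs 4 to 9 of Hoxa, Hoxc and Hoxd, Hoxb stays between 0.15 and 0.96, and Hoxc13 is at -2.09.

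The tissue pattern was found in each housing group taken alone. In BF 24 of 37 probe sets passed (45.8% of all probe sets did), in BG 28 (54.1%) and in FC 24 (46.8%). A difference of more than 2-fold was found in all 3 housing groups for 11 Hox probe sets, 10 higher in LD and Hoxc13 lower. Hoxa9 was not among them. Of all 22626 probe sets, 1335 in BF, 1099 in BG and 1583 in FC passed as more than 2-fold higher in LD. As more than 2-fold lower, 1719, 1870 and 1945 passed. The share of all that passed by this rule in all 3 housing groups was not counted. In FC, which rests on 2 tongue arrays, Hoxc9 was lost without FC tongue 2 (1.66, adjusted p = 0.0575). In 36 of 37 the difference had the same sign in all 3. Positive differences were common over all 22626 probe sets, with 13973 above 0 in BF, 14808 in BG and 14014 in FC. How many of all kept their sign in all 3 was not counted.

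RefSeq promoter windows (build GRCm38.p6) were matched for 18 of the 31 genes, and for 5 of the 11 genes with large differences: Hoxa5, Hoxa9, Hoxc4, Hoxd8 and Hoxd9. The 250 bases before the start are shown for Hoxd8 and Hoxd9, neighbours on chromosome 2 that varied together among mice, and for Hoxa5, which varied opposite to them. Capitals mark CG dinucleotides, the sites of DNA methylation.
Hoxd8, chr2:74704365-74704614, plus strand: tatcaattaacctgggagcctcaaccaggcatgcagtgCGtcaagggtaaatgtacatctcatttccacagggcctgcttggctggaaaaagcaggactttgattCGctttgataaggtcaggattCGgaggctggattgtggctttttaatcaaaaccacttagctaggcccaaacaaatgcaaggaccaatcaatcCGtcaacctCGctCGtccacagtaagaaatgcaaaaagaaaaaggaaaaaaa
Hoxd9, chr2:74697513-74697762, plus strand: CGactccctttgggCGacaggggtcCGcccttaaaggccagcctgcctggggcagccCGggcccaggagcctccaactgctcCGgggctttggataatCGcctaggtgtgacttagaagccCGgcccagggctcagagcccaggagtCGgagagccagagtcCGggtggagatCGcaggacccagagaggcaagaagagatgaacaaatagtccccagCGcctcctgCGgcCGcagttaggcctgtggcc
Hoxa5, chr6:52204588-52204837, minus strand: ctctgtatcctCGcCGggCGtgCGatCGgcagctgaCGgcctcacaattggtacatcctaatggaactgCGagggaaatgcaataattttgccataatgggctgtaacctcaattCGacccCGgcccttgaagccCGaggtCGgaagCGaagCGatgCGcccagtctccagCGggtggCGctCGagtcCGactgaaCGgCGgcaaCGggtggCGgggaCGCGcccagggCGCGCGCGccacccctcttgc
Hoxd8 held 6 CG dinucleotides, Hoxd9 13 and Hoxa5 28, against a median of 6 over 32851 windows of the same length and of 13 (2 to 35) over the 20 windows of Hox genes on the array. Hoxc4 held 8 and Hoxa9 3. The motifs of Hox partner proteins searched on both strands were TGATNNAT (bound by Pbx with Hox) and TGACAG (bound by Meis). A match of one can share its end base with a match of the other. Neither was found in the 5 windows. They occur in 7.68% and 15.9% of all windows, and in 3 and 2 of the 20 windows of Hox genes on the array.

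Other genes of Hox regulation are read beside all probe sets, of which 45.3% passed as higher and 24.5% as lower in LD. Hox proteins bind DNA with the TALE cofactors Pbx, Meis and Pknox, of which 8 genes were measured: 3 passed as higher and 3 as lower in LD, with a median of 0.10. Meis1 was lower in LD by 0.95 (SE 0.147, adjusted p = 5.62e-06) and Meis2 by 0.45, while Pknox2 was higher by 0.39 and Meis3 by 0.28. Polycomb complexes keep Hox genes silent. Of 16 measured subunits 7 passed as higher and 6 as lower (median -0.02). Ezh2, the histone methyltransferase, was lower in LD by 1.36 (SE 0.0674, adjusted p = 2.53e-14) and Cbx2 by 1.11, while Phc1 was higher by 1.43 and Bmi1 by 0.98. Of 7 genes of the opposing MLL complexes and H3K27 demethylases, Kmt2d passed as higher (0.29) and Men1 as lower (-0.23).

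Among 12 genes of the signals that set Hox expression in the embryo, 7 passed as higher and 2 as lower in LD. The retinoic acid receptor Rarg was lower by 1.65 (SE 0.083, adjusted p = 3.46e-14), and Rarb was higher by 0.69. Tgfbr1 and Acvr2b, receptors of Gdf11, were higher by 1.07 and 0.78. Of 10 measured genes that lie beside or near the clusters, 5 passed as higher, near the share over all probe sets. None passed as lower, and the median was 0.25. Evx1, beside Hoxa13, was at 0.35, Hibadh at 0.35 and Gpr84 at 0.26, all under 2-fold. Hibadh has 1 protein-coding gene between it and the nearest Hox gene, and Gpr84 has 5.

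The second question was whether spaceflight or housing changed Hox expression. In LD, the moderated test of limma passed 0 of 37 probe sets in BF vs. BG (10.2% of all probe sets passed) and 0 in FC vs. BG (8.95%). At an unadjusted p under 0.05 there were 2 and 4, against 5627 and 5545 of all 22626 probe sets. In BF vs. FC, 1 of 37 passed (3.66% of all), and 2 had an unadjusted p under 0.05, against 3591 of all. In tongue, 0 passed in BF vs. BG (0.826% of all), FC vs. BG (9.45%) and BF vs. FC (2.24%). At an unadjusted p under 0.05 there were 1, 2 and 2, against 3492, 5281 and 3642 of all. Without BG LD 5, Hoxc13 (-0.41, adjusted p = 0.0165) and Hoxb1 (-0.35, adjusted p = 0.0213) passed in BF vs. BG, and Hoxc5 (-0.53) and Hoxb1 (-0.35) in FC vs. BG. In FC vs. BG, Hoxb6 passed without BF LD 3, BG LD 3 or FC LD 1 (0.40 to 0.50), and Hoxb1 without FC LD 4 (-0.36). A p that misses the threshold does not show that values were equal, and the arrays per group limit the precision.

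The gene that passed was Hoxb6. It read 5.33, 5.55, 4.95, 5.48 and 5.33 in BF LD, 5.56, 5.79, 5.69, 5.77 and 6.18 in FC LD and 5.46, 5.26, 5.81, 5.23 and 5.25 in BG LD. The BF values lay below the FC values, narrowly at the closest. BF minus FC was -0.47 (SE 0.13, adjusted p = 0.0438). FC minus BG was 0.40 (adjusted p = 0.0592) and BF minus BG was -0.08 (adjusted p = 0.768). In tongue Hoxb6 read 4.98, 5.08 and 5.14 in BF, 4.69 and 4.72 in FC and 4.56, 4.69 and 4.96 in BG. The call in LD was lost, with adjusted p up to 0.125, in 20 of 33 alternative settings.

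For the genes that mark LD, the 95% intervals of BF minus BG show what could be seen. They were -0.44 to 1.04 for Hoxc8 (0.30), -0.48 to 0.50 for Hoxd8 (0.01), -0.62 to 0.91 for Hoxc9 (0.15) and -0.29 to 0.82 for Hoxd9 (0.27). For Hoxa5 the interval was -0.08 to 1.19 (0.56) and for Hoxa4 (1427354_at) -0.01 to 1.04 (0.51), the largest positive values among the 37 in this comparison. Hoxc4 was at 0.17 (-0.19 to 0.53) and Hoxc5 at -0.18 (-0.57 to 0.21). Changes of 2-fold or more thus lay outside the intervals for Hoxd8, Hoxc9, Hoxd9, Hoxc4 and Hoxc5, but inside those for Hoxa5, Hoxa4 and Hoxc8. Hoxc13 was lower by 0.31 (adjusted p = 0.111) and Hoxb1 by 0.28 (adjusted p = 0.0979). Over the 37, the differences ran from -0.31 to 0.56, with a median of 0.01.

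**Figure D3:**
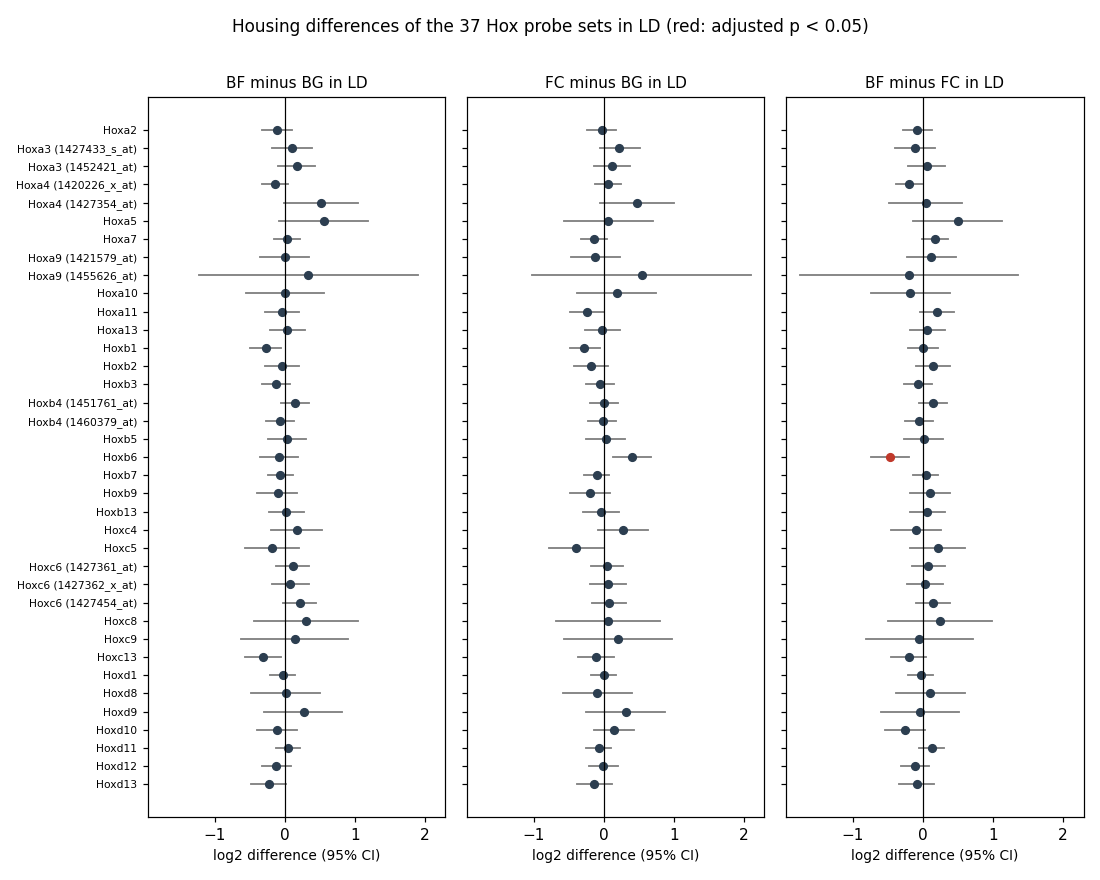
Log2 differences (horizontal axes) of the 37 Hox probe sets in LD for BF minus BG, FC minus BG and BF minus FC, with 95% intervals from limma. The interval leaves out 0 for 2, 4 and 2 of the 37, against 5627, 5545 and 3591 of all 22626 probe sets. Hoxb6 in BF minus FC (red, -0.47) is the 1 that passed, and Hoxa9 (1455626_at) has the widest interval.

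The difference between muscles in the response was tested as an interaction. For BF vs. BG, 0 of 37 passed (0.172% of all), and for BF vs. FC 0 of 37 (0.0663%). At an unadjusted p under 0.05 in limma there were 2 and 1, against 2731 and 1823 of all 22626 probe sets. Some regulators passed in BF vs. BG in LD. Of 16 Polycomb subunits 2 were higher in BF, beside the 10.2% of all probe sets that passed, Ring1 by 0.40 (adjusted p = 0.00795) and Suz12 by 0.30 (adjusted p = 0.0378). Of the 7 MLL and demethylase genes, the H3K27 demethylase Kdm6a (0.37, adjusted p = 0.00301) and Men1 (0.41) were higher in BF, and Dpy30 was lower by 0.66 (adjusted p = 0.00312). In FC vs. BG in LD, 3 Polycomb and 2 MLL and demethylase genes passed as higher in FC, and in BF vs. FC 0 passed of either list. Of the 8 cofactors 0 passed in LD in any of the 3 housing comparisons.

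The third pattern was the spread among mice of 1 group. The SD among mice of the 12 probe sets with large tissue differences had a median of 0.453 in LD and 0.199 in tongue. Over all 37 it was 0.206 in LD and 0.162 in tongue, and over all probe sets 0.186 and 0.164. Since 11 of the 12 were chosen for being high in LD, their spread in LD against tongue is a description only. In LD, Hoxa9 (1455626_at) varied most with an SD of 1.6, followed by Hoxc9 with 0.777, Hoxc8 with 0.71 and Hoxa5 with 0.64. The Hoxc6 probe sets 1427361_at and 1427362_x_at varied little (0.187 and 0.206). The percentile of Hoxc9 among all probe sets was 99.4 in LD and 70.8 in tongue.

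Mice high in Hoxc8, Hoxc9, Hoxd8 and Hoxd9 tended to be low in Hoxa4 (1427354_at), Hoxa5 and Hoxc5. To remove housing, each value was taken as the deviation from its housing-group mean in LD, and 11 of the 12 probe sets were compared over 15 mice. Hoxa9 (1455626_at) was left out because 4 mice lay far above most of the others. Of 55 pairs, 19 passed (permutation within housing groups, Benjamini-Hochberg over the 55), 9 positive and 10 negative. The share of pairs that would pass among other probe sets of like spread was not measured. Hoxc8, Hoxc9, Hoxd8 and Hoxd9 rose and fell together in 6 of 6 pairs, with r from 0.76 to 0.96, although these genes lie on 2 chromosomes. Between them and Hoxa4, Hoxa5, Hoxc4 and Hoxc5, all 16 pairs had a negative r, -0.88 to -0.15, and 10 passed. By rank correlation, Hoxc8 with Hoxd8 did not pass (rho = 0.60, permutation test, adjusted p = 0.0757).

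The strongest pair was Hoxd8 with Hoxd9 (r = 0.96, rho = 0.89, permutation p = 6e-05 and 0.00029, adjusted p = 0.00247 and 0.00642). Hoxc9 with Hoxd8, on different chromosomes, had r = 0.91 and rho = 0.86 (permutation p = 9e-05 and 8e-05, adjusted p = 0.00247 and 0.0044). Hoxc9 with Hoxa5 had r = -0.88 and rho = -0.88 (permutation p = 0.00019 and 0.00035, adjusted p = 0.00275 and 0.00642). Without the 2 mice farthest from the median of the first gene, r was 0.94, 0.90 and -0.85. Within BF, BG and FC, r of Hoxc9 with Hoxa5 was -0.90, -0.81 and -0.96, each over 5 mice. The relation had the same sign in flown mice and in both ground groups. Within cluster c itself, Hoxc9 and Hoxc5 had r = -0.82 (rho = -0.79, permutation p = 0.00218 and 0.0028, adjusted p = 0.0133 and 0.022), 2 genes of the same cluster that varied in opposite directions.

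The extremes show the size. FC LD 4 had 7.0 for Hoxc9, 6.71 for Hoxc8, 9.01 for Hoxd8, 8.05 for Hoxa5 and 6.96 for Hoxa4. FC LD 1 had 9.15 for Hoxc9, 9.0 for Hoxc8, 10.04 for Hoxd8, 6.63 for Hoxa5 and 5.73 for Hoxa4. Both were FC mice, and the same contrast was seen in BF, where BF LD 4 had 7.30 for Hoxc9 and 8.48 for Hoxa5 and BF LD 3 had 8.83 and 6.88. In each housing group LD 4 was the lowest in Hoxc9 (7.35 in BG LD 4). LD 1 and LD 2 lay above the Hoxc9 mean of each group, and LD 3 and LD 5 on both sides. Replicate number was not removed from the deviations, and its part in the correlations was not tested.

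**Figure D4:**
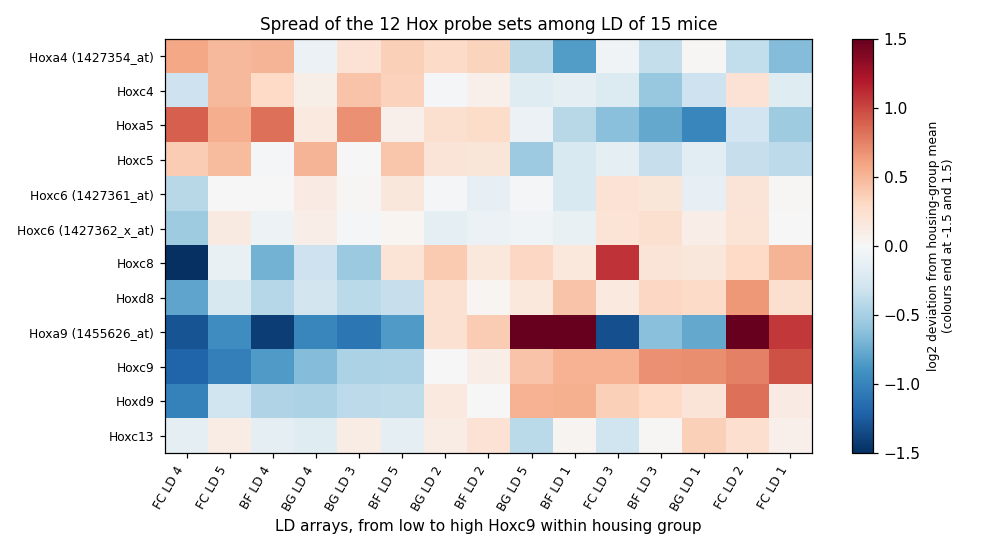
Log2 deviation of the 12 Hox probe sets (rows, by paralog number) from the housing-group mean in LD of 15 mice (columns, from low to high Hoxc9). Red is above and blue below the mean, and the strongest colours also hold values past the scale. Hoxa4, Hoxa5 and Hoxc5 are mostly red where Hoxc8, Hoxc9, Hoxd8 and Hoxd9 are blue.

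**Figure D5:**
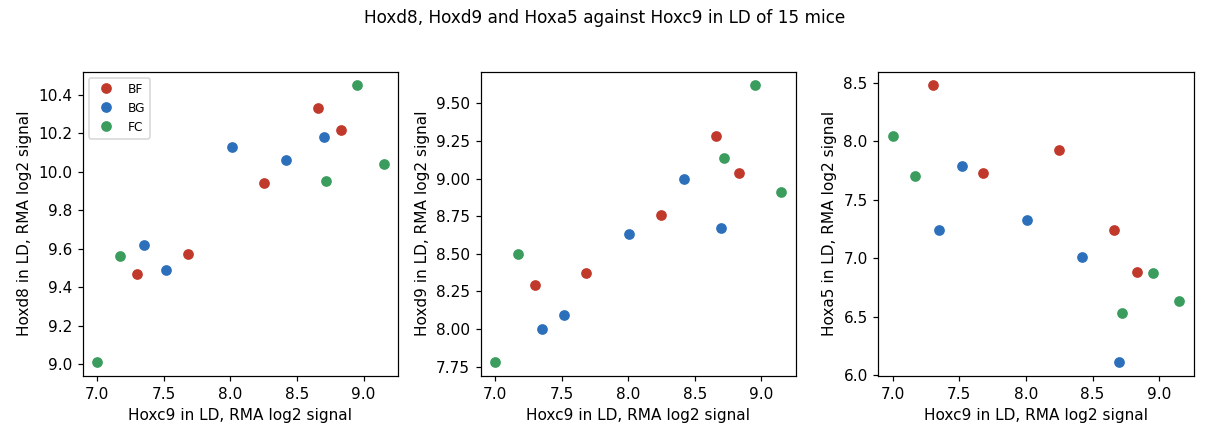
RMA log2 signal of Hoxd8, Hoxd9 and Hoxa5 (vertical axes) against Hoxc9 (horizontal axes) in LD, with 1 point per mouse, coloured by housing group. Hoxd8 and Hoxd9 are higher and Hoxa5 lower where Hoxc9 is higher, in all 3 housing groups.

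How far this variation extended to other genes was measured by fitting, over the 15 LD arrays and with housing group in the model, the slope of every other probe set on the Hoxc9 value. Of 22625 probe sets 659 passed (2.91%), 357 rising and 302 falling with Hoxc9. Of the 36 other Hox probe sets 3 rose (Hoxc8, Hoxd8 and Hoxd9) and 3 fell (Hoxa4, Hoxa5 and Hoxc5). Other probe sets of the same paralog numbers did not pass, among them Hoxb9 (-0.10 per unit of Hoxc9), Hoxb5 (-0.15), Hoxb4 (-0.11 and 0.00), Hoxc4 (-0.23), Hoxa4 (1420226_x_at, -0.07) and Hoxa9 (0.20 and 1.23). Leaving out single mice changed the overall count from 201 (without FC LD 4) to 881 (without BG LD 5). Hoxa5 fell by 0.73 (SE 0.103, adjusted p = 0.000993) and Hoxd8 rose by 0.50 (SE 0.0685, adjusted p = 0.000838) per unit of Hoxc9. Meis1, a Hox cofactor, rose by 0.45 (adjusted p = 0.00331), and Phc1 of Polycomb rose by 0.45 (adjusted p = 0.00614).

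Cell type markers were compared with Hoxc9 in the same way. Of 10 marker lists 0 passed after adjustment over the 10 (permutation test, 2 lists at an unadjusted p under 0.05 for r). The mean of salivary gland markers had r = -0.73 and rho = -0.71 (permutation p = 0.00872 and 0.00785, adjusted p = 0.0872 and 0.0785), that of satellite cell markers r = -0.56 and rho = -0.60 (adjusted p = 0.196 and 0.108), and that of fibroblast markers r = 0.57 and rho = 0.58 (adjusted p = 0.196 and 0.198). Of the 5 salivary gland markers only Bpifa2 passed (-0.70 per unit of Hoxc9, adjusted p = 0.00158), and Aqp5 (0.03), Muc5b (0.15), Dcpp1 (0.01) and Amy1 (-0.12) did not. Skeletal fibre markers had r = 0.02 (rho = -0.00, adjusted p = 1 and 0.996). The stretch of LD that was dissected was not recorded in the sources used here, and its part in this variation was not tested.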

How the data were processed

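The deposited values are log2 signals per probe set of Affymetrix Mouse Genome arrays, which the authors made from scanned intensities with RMA (background correction, quantile normalization, median polish) in Partek Genomics Suite. Arrays were labelled from 100 ng of total RNA. All 22626 probe sets of the 23 arrays were used without a filter, including 1555 with no listed gene. Quantile normalization over both muscles sets all arrays to 1 distribution, so small differences between muscles depend on it.

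One linear model with 6 groups (17 residual degrees of freedom) was fitted in limma 3.58.1 under R 4.3.3, moderated with eBayes (prior degrees of freedom 5.12) with p-values adjusted per comparison (Benjamini-Hochberg, all probe sets). LD vs. tongue is the equal-weight mean of the 3 within-housing differences. Correlations used 100000 resamples within housing groups (scipy 1.17.1 and numpy 2.4.6, two-sided). The limma fit of the groups was tested on simulated data, and the correlations and the slope on Hoxc9 were not. Samples were grouped by their labels. The labels do not say how the mice were housed within a group, so p-values measure the spread between these samples.

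The Hox members and gene lists were chosen with earlier results of these data known. Named are all Hox probe sets and, of the other lists, up to 4 genes with the smallest adjusted p in LD vs. tongue. Genes named for the housing comparisons, the paralog ranges, the correlations among mice, the slope on Hoxc9 and the CG count were chosen after values were seen. Alternatives were contrasts without moderation, trend and robust moderation, brighter probe sets, median centring, array weights, 1 probe set per gene, each muscle alone, quantile normalization within muscle, replicate blocks and each array left out. Cyclic loess, Hoxc9 as a covariate, and leaving out the 4 LD arrays highest in Hoxa9 were added after the data were seen. Probe sets that name several Hox genes were kept apart.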

Additional observations from a re-analysis of the deposited data

Results flagged for a closer look

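In 39 groups of 5 LD mice (13 Hox probe sets, 3 housing groups), 2 groups held a mouse far from the others by Dixon's test, which chance does in about 1 of 20 groups. For Hoxc8 in BF, LD 4 read 8.02 and the other 4 mice read 8.88 to 8.93, a gap of 0.948 of the range. For Hoxc6 (1427362_x_at) in FC, LD 4 read 7.74 and the others 8.27 to 8.48, a gap of 0.714 of the range. Both mice were also the lowest of their housing group in Hoxc9, at 7.30 and 7.0. BG LD 4, at 7.35, was the lowest of BG, so LD 4 was the lowest in each housing group.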

How the results depend on the processing

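Of the 12 Hox probe sets more than 2-fold different between LD and tongue (mean over housing groups), 11 kept passing in every alternative that tested them, and Hoxa9 (1455626_at) was the exception. The count of more than 2-fold was 8 with the brighter probe sets, 10 with 1 probe set per gene, 13 with median centring and 11 or 12 in the other settings. With only the brighter probe sets, 10 of the 37 remained to be tested, and 10 passed in LD vs. tongue, 9 in BF, 10 in BG and 9 in FC. The median difference over all probe sets was 0.14 as deposited, 0.23 after median centring and 0.02 after cyclic loess, and that over Hox was 0.51, 0.60 and 0.42. In BF vs. BG in LD, 3 Hox probe sets passed with array weights (Hoxc13, Hoxb1 and Hoxd13) and 2 with Hoxc9 as a covariate (Hoxa4 and Hoxa5). In FC vs. BG in LD, 1 passed with array weights and 1 with cyclic loess (Hoxb6). In BF vs. FC in tongue, 1 passed with array weights (Hoxc13). In BF vs. FC in LD, 0 passed without moderation, with the brighter probe sets, with 1 probe set per gene, in LD alone, with quantile normalization within muscle, or with the replicate block. Leaving out single arrays gave 0 to 2 in BF vs. BG in LD, 0 to 2 in FC vs. BG in LD and 0 to 1 in BF vs. FC in LD. The cause was not tested.

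Replicate numbers were not treated as pairs. Same-numbered LD and tongue samples deviated together (r over 0.1) in 1 of 8 pairs, same-numbered LD samples of different housing in 8 of 15 and tongue samples in 3 of 7. The replicate block moved a count of passed Hox probe sets by over 1.5 times only in BF vs. FC in LD (0). A block for a shared mouse gave a correlation of -0.0231. The number of arrays limits what could be seen.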

Other observations

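Beyond the Hox genes, the following are examples of probe sets whose LD values followed Hoxc9 among the 15 mice, with no gene group tested. Those that rose with Hoxc9 included Ighm, the heavy chain of immunoglobulin M (1.93 per unit of Hoxc9, SE 0.172, with 3 of its 11 probe sets past the threshold), and Fmod, a small proteoglycan that binds collagen (1.73 per unit of Hoxc9, SE 0.143, adjusted p = 1.8e-05, with 6 of its 6 probe sets past the threshold). Wif1, a Wnt inhibitor, rose by 1.55 (SE 0.134), Il1r1, an interleukin receptor, by 0.93 (SE 0.0737) and Car3, the carbonic anhydrase of slow muscle and fat, by 0.90 (SE 0.0847). Fmod read from 6.78 to 11.24 and Wif1 from 2.67 to 6.24 among LD arrays. Those that fell included Fgfbp1, an FGF carrier (-1.60, SE 0.211, adjusted p = 0.000559), Dkk3 (-0.95, SE 0.123) and Echs1, an enzyme of fatty acid oxidation (-0.56, SE 0.062). Of the fibroblast markers, Col1a1 (1.08, adjusted p = 0.0446) and Col1a2 (0.86, adjusted p = 0.0478) rose with Hoxc9. Col3a1 (0.49), Dcn (0.24), Dpt (0.15), Pdgfra (0.14) and Lum (-0.07) of that list did not pass. The salivary gland marker Bpifa2 (-0.70, adjusted p = 0.00158) and the myogenic regulators Pax3 (-0.59, adjusted p = 0.0107) and Myf5 (-0.30, adjusted p = 0.0209) fell. Pax7 (0.01) and Myod1 (0.24), of the same satellite cell list as Pax3 and Myf5, did not pass.

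Probe sets that name more than 1 Hox gene could not be assigned to either. Those of Hoxd3 and Hoxd4 were higher in LD by 0.29 (1421537_at, adjusted p = 0.00111) and 0.42 (1450209_at, adjusted p = 0.000643). That of Hoxb7 and Hoxb8 was higher by 0.40 (1452493_s_at, adjusted p = 0.000265). The antisense transcript Hoxa11os was higher by 0.25 (1452400_a_at, adjusted p = 0.00544), and whether its signal can be told from that of Hoxa11 was not tested.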
